A study of Mus musculus with 16 samples.

Results

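N6-methyladenosine (m6A) is a methylated form of adenosine found inside messenger RNA, and the peaks described here are stretches enriched for it in genes with few RNA counts in mouse bone. Peaks were selected on the count of their gene: a peak was taken when its gene had a mean normalized count under 300 in the authors' deposited table of RNA comparisons and fewer than 6 peaks in the authors' deposited table of m6A peaks. The rule gave 794 of 13083 peaks, in 663 of 6847 genes with a peak, and the limit of 6 peaks removed none of them. The count was not divided by transcript length, so a short gene can fall under 300 at a level where a long one does not.

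RNA of wild type mouse bone was compared after ovariectomy, the surgical removal of the ovaries that lowers estrogen, and after a sham operation. Each arm had 4 input libraries, made from RNA before the pull-down, and 4 immunoprecipitated (IP) libraries, made from fragments caught with an m6A antibody, 16 in all. Libraries titled NC were taken as sham and those titled OVX as ovariectomy, although the treatment label reads ovariectomy for all 4 NC IP libraries. The labels number the libraries without saying whether each came from its own animal, so the spread between these libraries may be technical. RNA p-values measure at most that spread. Whether the m6A p-values take in the spread between libraries is not given in the sources used here, which also give neither strain nor age. Both tables hold comparisons of the arms, neither says which arm is the numerator, and no value for a single library was analysed here. Signs are therefore given as deposited. The spread between libraries enters only through the deposited standard errors (SE) of the RNA and whatever part of it the p-values hold.

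In the authors' deposited table the bone genes Col1a1, a collagen of bone matrix, and Ctsk, a protease of bone-resorbing cells, had mean counts of 99867.6 and 12680.8. The 17 skeletal muscle genes checked, such as Myh4, summed to 1139760 mean counts in the authors' deposited table, so muscle RNA was present in the bone samples. In a bulk tissue, fewer cells of a type and less RNA per cell cannot be told apart.

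The methyl mark is written on nuclear RNA by the Mettl3 and Mettl14 methyltransferase, removed by Fto and Alkbh5, and read by proteins of the Ythdf family, which can shorten the life of the RNA. It sits most often in long internal exons and near stop codons, at an adenosine within the DRACH consensus. Regulatory genes with short-lived RNA, such as transcription factors and signalling genes, are well known carriers of the mark in other tissues. A peak is called from reads, so few counts in a gene leave few reads to call it from.

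Sequence could be read only where a peak touched the first 50 bases of a transcript, since start site windows, and no genome, were at hand. The windows are from RefSeq, build GRCm38.p6. On that build 29 of all peaks began exactly at the annotated start of a transcript of the named gene, against 1 peak at a distance of 1 or 2 bases, and the strand agreed for 10464 of 10464 peaks with a gene in the window table. Of the 794 peaks, 12 (1.51%) touched a start window, close to the share of 1.20% among the other 12289 peaks, and 4 covered at least 30 of its bases. The 3 of these 4 that have a gene symbol with a known protein are printed, 30 bases each, because they are the only windows that place a peak of a weakly expressed gene on letters. Capitals mark a DRACH form, searched on the gene's strand as DNA. The forms are GGAC or the related GAAC, then AGAC or the related AAAC, and last TGAC or the related TAAC, with any base but G after them.

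Rmdn2 (chr17:79626688-79626717, plus strand, bases 14 to 43 of a transcript): gtattcagtcttcTGACCtgttccacctac
Tmem126b (chr7:90475956-90475985, minus strand, bases 11 to 40 of a transcript): aggcgctaagatggcggcgtcccagcgacc
Trmt61b (chr17:71598233-71598262, minus strand, bases 20 to 49 of a transcript): aaagaaattagtcctactctgcaacgtcgg

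The Rmdn2 peak ended at the last base printed and carried 1 DRACH form there, TGACC. The stretches of Tmem126b, of mitochondrial complex I assembly, and Trmt61b, a tRNA methyltransferase, held none of these letters. For comparison, 54.4% of all 32851 windows of 50 bases hold at least 1 such form. The printed stretches are shorter, 30 bases, so that share is not the one to set beside them. The enrichment over input was 3.16 for the Rmdn2 peak, 1.87 for Tmem126b and 1.44 for Trmt61b in the authors' deposited table.

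Few weakly expressed genes carried a peak, and the peaks found had enrichments close to those of other genes. Of the genes above 0 counts and under 300, 7.86% had a peak, against 58.0% of the genes at 300 or more. Within the set the share rose from 1.16% of genes under 50 counts to 12.5% at 50 to 100, 18.6% at 100 to 200 and 28.3% at 200 to 300. The median enrichment of IP over input was 1.75 (quartiles 1.5 and 2.10) in the authors' deposited table, against 1.83 (1.54 and 2.21) for the other peaks. An enrichment of at least 2 was reached by 265 peaks (33.4%, exact 95% interval 30.1 to 36.8) of the set and by 37.6% of the others in the authors' deposited table. Because only enriched stretches are called, these values describe called peaks and not the methylation of weakly expressed RNA as a whole. Across the 794 peaks the mean count and the enrichment had a Spearman correlation of -0.03 (a description over peaks, of which some share a gene).

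**Figure D1:**
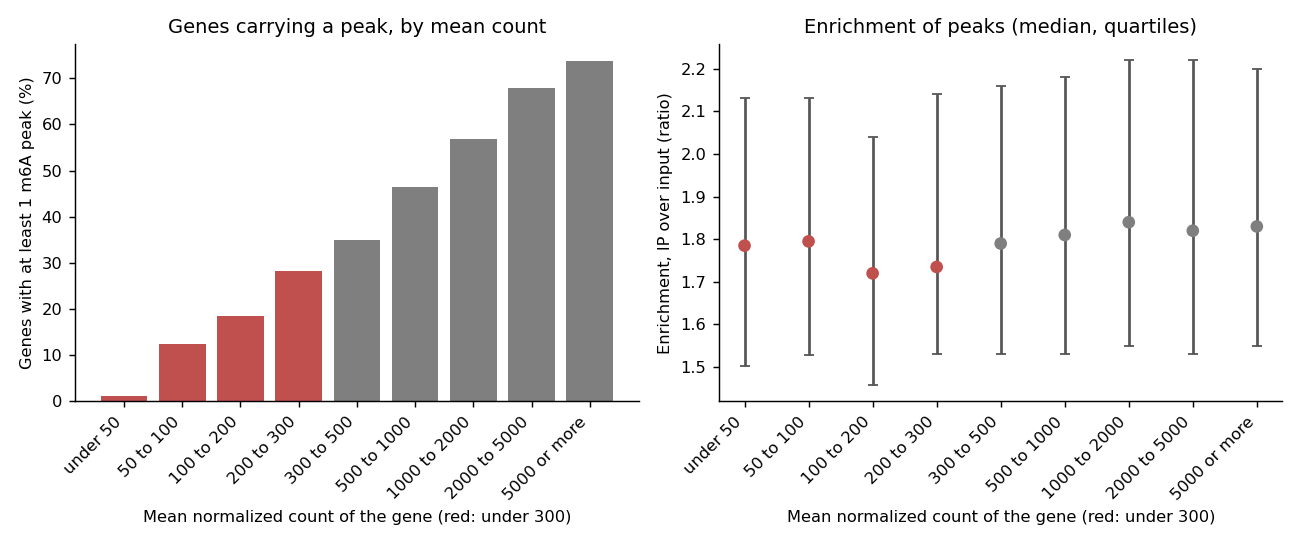
Left, bars give the percentage of genes above 0 counts that carry at least 1 m6A peak, by class of mean normalized count. Right, points give the median and bars the quartiles of the enrichment ratio of their peaks; red marks genes under 300 counts. The share with a peak runs from 1.16% to 73.7%, while the median enrichment stays between 1.72 and 1.84.

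The strongest peaks of the set belonged to genes of unlike function. The highest enrichment was 4.86 in the authors' deposited table, for a single-block peak of Htr2a, a serotonin receptor (chromosome 14, 74706361 to 74706461). Lekr1 (chromosome 3, 65683968 to 65684067) stood at 3.80 and Skint3, of a family of immunoglobulin-like membrane proteins (chromosome 4, 112298622 to 112298821), at 3.75 in the authors' deposited table. Eif3j1, a subunit of a translation initiation factor, had 3.53 over 8 exon blocks, and Mettl18, a histidine methyltransferase, had 3.50 in the authors' deposited table. Next came Fut1, a fucosyltransferase, with 3.33, then Rmdn2 and D3Ertd751e, both with 3.16 in the authors' deposited table. None of these genes passed the RNA threshold (adjusted p between 0.080 and 0.97 by the authors' deposited table, with none given for Eif3j1). At the limit of the rule, Myh6, Ccdc122 and Klrk1 lay just inside with means of 298.5, 299.2 and 299.4 counts and enrichments of 1.67, 2.17 (with 2.77 in its other peak) and 2.64 in the authors' deposited table. Just outside, Caprin2, Zbtb49 and Insyn1 had means of 300.05, 300.2 and 301.5 and enrichments of 1.54, 1.5 and 2.20 in the authors' deposited table.

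Peaks of the set were short and mostly lay in 1 exon. Their exonic length had a median of 101 bases (quartiles 100 and 151), against 151 (101 and 250) for the other peaks, and the longest was 739 bases, in Ccdc122. Of the 794 peaks, 629 (79.2%, exact 95% interval 76.2 to 82.0) were a single exon block, against 58.6% of the others. The class of 300 to 500 counts, just outside the rule, had 79.7%, so the form was shared with the genes next in level. Enrichment followed length in and out of the set. Peaks under 110 bases had a median of 1.62 in the set and 1.58 elsewhere, and peaks of at least 180 bases had 2.06 and 2.08 in the authors' deposited table. Most genes of the set, 553 of 663 (83.4%), had 1 peak, 92 had 2, 15 had 3 and 3 had 4, whereas 50.7% of the other genes had 1. In the 110 genes with several peaks, only the peaks nearest the 3′ and 5′ ends were compared, and any peak between them was left out. The 3′ peak was the more enriched of the pair in 53 genes and the 5′ peak in 57. Among other genes with 2 to 4 peaks the 3′ peak was the more enriched in 50.3%.

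The plus strand of the genome held more of these peaks than the minus strand. Of the 794 peaks, 577 (72.7%, exact 95% interval 69.4 to 75.7) were on the plus strand, against 59.9% of the other peaks. The neighbouring classes of 300 to 500 and 500 to 1000 counts had 69.8% and 66.7%. Within the set the share was lower at the fewest counts, 64.3% under 50 counts and 9 of 19 (47.4%) under 12. Among tested genes under 300 counts without a peak, 45.7% of those in the RefSeq window table were plus-strand genes. By gene, the plus share in the set was 67.5% with 1 peak, 81.5% with 2 and 94.4% (17 of 18) with 3 or 4; Moap1 was the 1 minus-strand gene with that many. Other genes had 52.4%, 59.2% and 63.5% at the same numbers of peaks. Plus-strand peaks of the set also had the higher median enrichment, 1.80 against 1.62 on the minus strand, with 1.86 and 1.77 among the other peaks in the authors' deposited table.

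**Figure D2:**
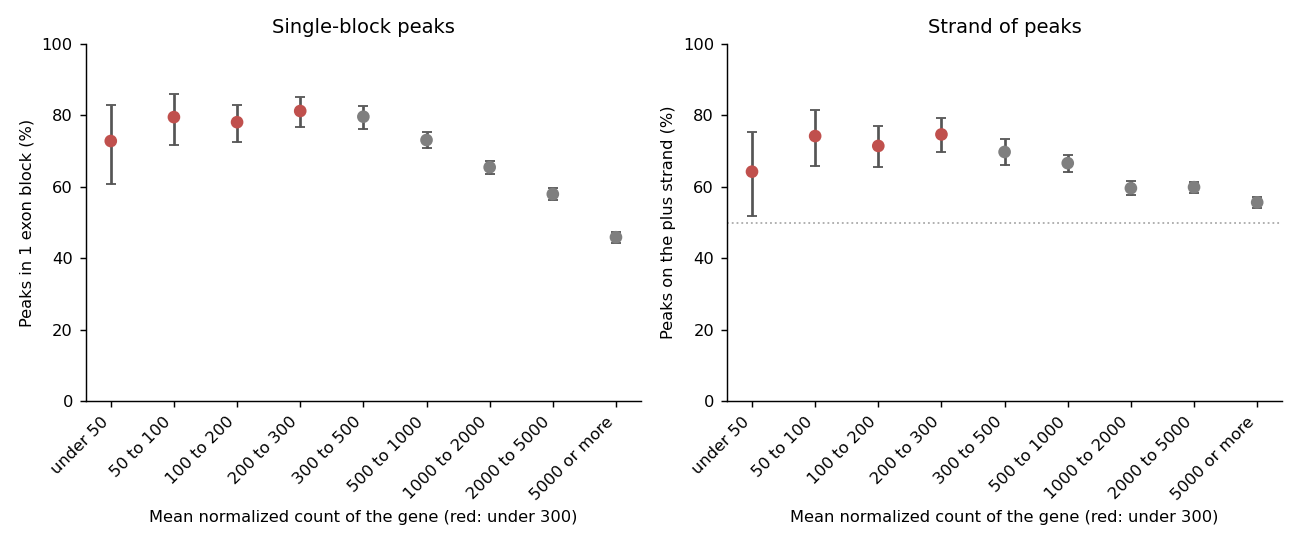
Points give the percentage of peaks in a single exon block (left) and on the plus strand of the genome (right) by class of mean normalized count, with exact 95% intervals over peaks; red marks genes under 300 counts and the dotted line marks 50%. Single-block peaks fall from 81.3% at 200 to 300 counts to 45.9% in the highest class, and plus-strand peaks from 74.7% to 55.7%.

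Some of these peaks covered the same bases as a peak of a more strongly expressed gene. Of the 794 peaks, 66 (8.31%) shared bases with a peak listed under another gene, 29 on the same strand and 37 on the opposite strand, and in 61 of the 66 the other gene had the higher count. Where both peaks of a pair belonged to the set, each was counted. The share was not counted among peaks outside the set, so whether it is particular to weakly expressed genes is not known. The 2 peaks of such a pair had nearly the same enrichment, with a median absolute difference of 0.06 on the same strand and 0.10 on opposite strands. Tsix, the antisense transcript of Xist, had 2.21 on the plus strand where Xist had 2.19 on the minus strand in the authors' deposited table, at mean counts of 73.0 and 31776.8. Gm20319 is listed at 0 counts, yet its peak had 1.79 where Il1rap, on the opposite strand, had 1.97 in the authors' deposited table. On the same strand, Evi2 had 2.88 and 2.17 where Evi2b, of the same locus, had 2.95 and 2.11 by the authors' deposited table. The widest gap was in Rsf1os2, an antisense transcript, with 1.83 against 3.49 for Rsf1 in the authors' deposited table. Whether reads were assigned by strand is not given in the sources used here, and values of such pairs cannot be assigned to 1 gene.

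**Figure D3:**
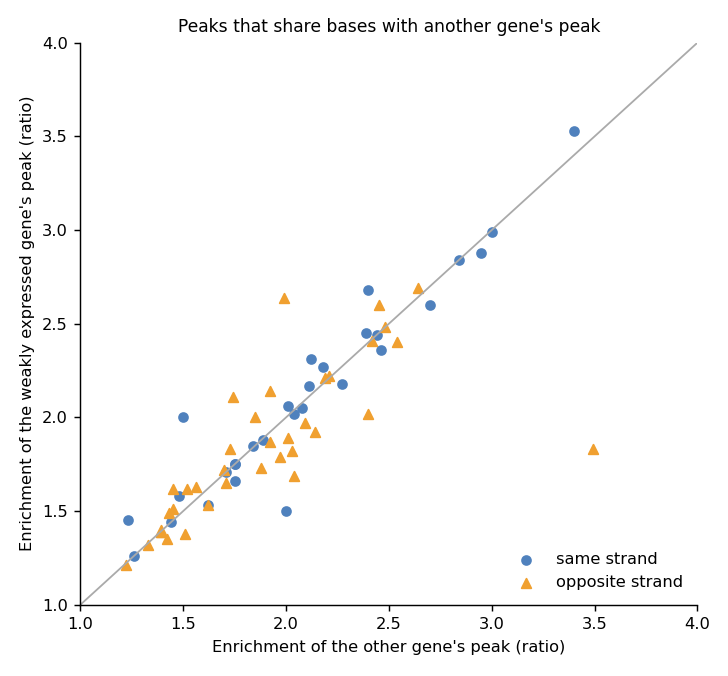
Each point is a peak of a weakly expressed gene (vertical axis, enrichment ratio of IP over input) that shares bases with a peak of another gene (horizontal axis, same unit); the line marks equal values. Most of the 66 points lie close to the line, 43 of them within 0.1 of it, on the same strand (circles) and on opposite strands (triangles).

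Overlap with a more strongly expressed gene was most frequent at the lowest counts. In RefSeq, 20.9% of the genes of the set overlap a gene with at least 300 counts, against 13.3% of the other genes with a peak, and of the genes under 12 counts 15 of 17 (88.2%, exact 95% interval 63.6 to 98.5) do. The other genes have 300 or more counts themselves, so the partner counted in their 13.3% can be the weaker gene. In the set it is always the stronger one. Mhrt, a noncoding transcript that overlaps the myosin heavy chain gene Myh7, is listed at 0 counts with a peak enrichment of 2.14 in the authors' deposited table. Nox1, a superoxide-producing oxidase, had 0.90 counts and 1.63 at a place shared with Cstf2, and Mmp24, a membrane metalloproteinase, had 1.52 counts and 2.22 at a place shared with BC029722 in the authors' deposited table. Lbhd1, with 5.53 counts, had the smallest p against input of the set (log10 p = -53.8, enrichment 2.69 in the authors' deposited table). Naip7, with 0.94 counts, has the relatives Naip2, Naip5 and Naip6 at 1838, 1630 and 1387 counts in the authors' deposited table. A Naip7 peak with an enrichment of 1.53 shares 81 of its 151 bases with a Naip6 peak of 1.62 on the same strand. Whether reads were split between relatives was not tested. Peaks of shared bases pair Eif3j1 at 10.3 counts with Eif3j2 at 2191, and Plac9b at 125.8 with Plac9a at 1292 in the authors' deposited table.

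By function, list medians ran from 1.28 for cytokine and innate immune genes to 2.52 for a list of developmental and lineage transcription factors, and no test was run on them. Of the 663 genes, 141 were on at least 1 of 16 lists, with 173 peaks, and the lists were small. The 10 peaks in 9 developmental and lineage transcription factors had a median enrichment of 2.52 in the authors' deposited table, against 1.75 over the set and 1.90 for the 93 peaks of such factors in more strongly expressed genes. The list did not hold every such factor of the set. With Bcl11b (2.0), Eomes (2.23), Emx2 (1.43 and 1.33), Bhlha15 (1.38) and Dlx6 (1.12) added after their values were seen, the median over 16 peaks in 14 genes was 1.98 by the authors' deposited table. Further factors of the set, such as Hoxb8, Hand2, Meox1 and Meox2, were still left out. Neither median therefore covers the whole class, and the rank of the list rests on the genes chosen for it. Zinc finger genes, the larger class of factors, had medians under that of the set and are given below. Hoxc8 and Hoxb7, which set position along the body axis, had 3.0 and 2.93, and Twist1, a regulator of mesenchyme, had 2.82 in the authors' deposited table. Sox9, the master regulator of cartilage, had 2.62 in 1 of its peaks and 1.53 in the other in the authors' deposited table. Of the RNA of these 9 factors, only Hoxc9 passed the threshold, at a log2 fold change of -0.97 ± 0.33 (SE; adjusted p = 0.030) in the authors' deposited table.

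By the authors' deposited table, 9 peaks in 6 Wnt genes had a median enrichment of 2.0. Wnt signals steer osteoblast formation, and the list held ligands (Wnt4, Wnt16), secreted modulators (Dkk2, Sfrp2, Rspo3) and the nuclear cofactor Pygo1. Dkk2 had 2.75 and 2.06 in its peaks and Rspo3, which enhances Wnt signals, had 2.47 in the authors' deposited table. Wnt16, which protects cortical bone, had 2.0 and Wnt4 had 1.09 in the authors' deposited table. The RNA of Sfrp2 (-1.36 ± 0.33, adjusted p = 0.0013) and Rspo3 (-0.79 ± 0.24, adjusted p = 0.014) was called by the authors' deposited table, both negative, and that of the other 4 was not.

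Receptors and transporters made up further groups. The 16 peaks in 13 G protein-coupled and adhesion receptor genes had a median of 1.92 in the authors' deposited table, and all 16 were single blocks. After Htr2a, the largest were 3.0 for Lpar5, a receptor of lysophosphatidic acid, and 2.56 for Ptger3, a prostaglandin E receptor, in the authors' deposited table. Gpr171 passed the RNA threshold, with 1.13 ± 0.26 (adjusted p = 6.8e-04) in the authors' deposited table. Solute carriers had 13 peaks with a median of 1.64, led by Slc23a1, an ascorbate transporter, with 2.50, and ion channels had 8 with a median of 1.73, led by Kcne3 with 2.46 in the authors' deposited table. Zinc finger genes of the Zfp and Zscan families were the most numerous, with 67 peaks in 47 genes and a median of 1.68 in the authors' deposited table, and their 393 peaks in more strongly expressed genes had 1.89. The largest of these was 3.07 in Zfp189, followed by 2.88 in Zfp54 and 2.85 in Zfp60 in the authors' deposited table.

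Other lists had fewer peaks or lower values. The cilium list had 12 peaks in 8 genes with a median of 1.64, among them Bbs12 and Bbs10, chaperonin-like proteins of the Bardet-Biedl group, with up to 2.0 and 1.86 in the authors' deposited table. Among guidance genes Sema3e, a semaphorin, stood at 3.11 and Robo2 at 2.25, beside a list median of 1.57 over 5 peaks in the authors' deposited table. The BMP list had 3 peaks, with Smad9 at 2.14 and the inhibitor Smad6 at 1.54, and the Notch list had Hes1, a Notch target, at 2.0 and Dll4, a Notch ligand, at 1.89 in the authors' deposited table. The 4 cytokine and innate immune genes had the lowest median, 1.28, with Nod2, an intracellular sensor of bacterial cell wall, at 1.74 and Il18 at 1.20 in the authors' deposited table. Polycomb and histone methylation genes had 4 peaks (median 1.76), BTB and Kelch genes 8 (1.70), ubiquitin ligases 8 (1.64) and cadherins 4 (1.86) in the authors' deposited table. The list of 89 DNA repair and replication genes had no peak here, while 62 of these genes had a peak at higher counts. The other RNA calls on the lists were negative apart from Kbtbd8 and Cbx2. Zfp112 had a log2 fold change of -0.99 ± 0.22, Zfp930 had -0.46 ± 0.16, the fatty acid transporter Slc27a6 had -0.58 ± 0.18, and Dync2li1, a light intermediate chain of the cilium's dynein motor, had -0.95 ± 0.19 by the authors' deposited table. The ligand genes Dll4 and Efna1 had -0.78 ± 0.24 and -0.72 ± 0.19, and Kbtbd8, a Kelch adaptor of a ubiquitin ligase, had 0.56 ± 0.20 by the authors' deposited table. Of the 173 peaks on the lists, 1 (0.578%) had a deposited difference p under 0.05, that of Slc26a8, against 2.39% of the set and 4.92% of all peaks.

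**Figure D4:**
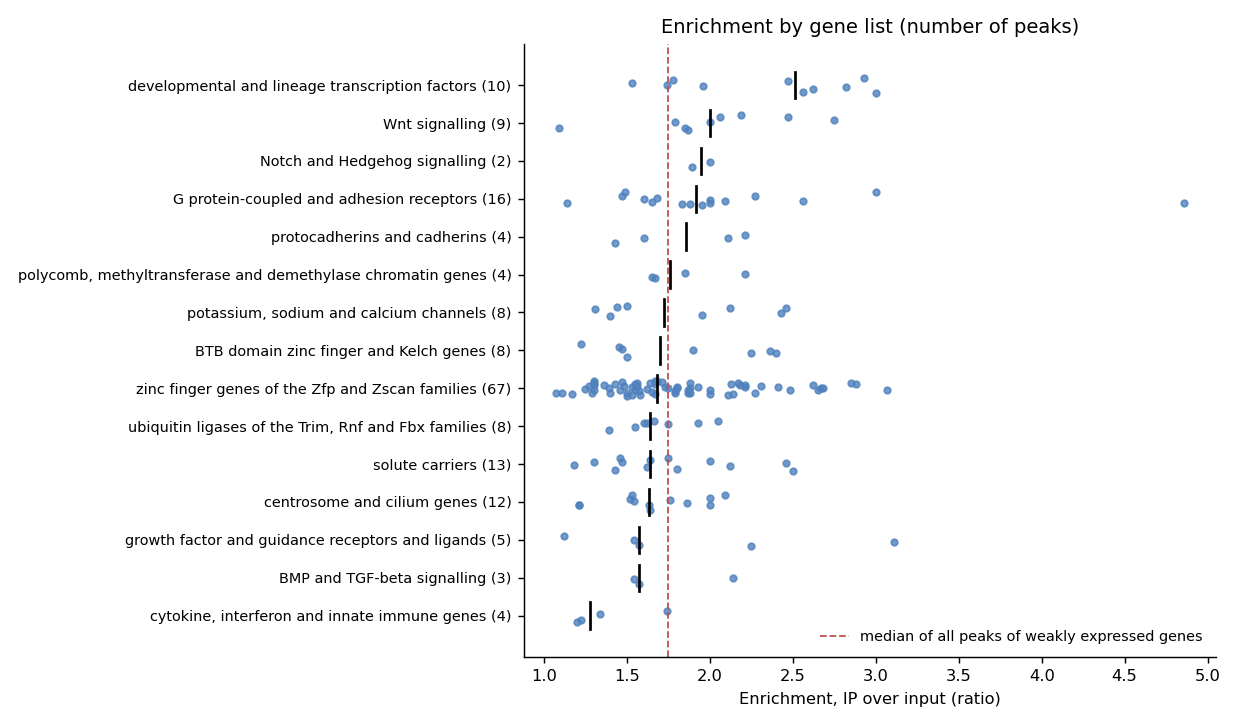
Each dot is the enrichment ratio of IP over input of 1 peak of a weakly expressed gene, by gene list with the number of peaks in brackets; vertical bars are list medians and the dashed line is the median of all 794 peaks, 1.75. The list of developmental transcription factors, which leaves out several such factors of the set, has the highest median, 2.52. The cytokine list has the lowest, 1.28, and the dots of all lists with 5 or more peaks spread on both sides of the dashed line.

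Differences in m6A between the arms were wide and seldom passed the threshold in this set. The deposited difference p was under 0.05 for 19 of 794 peaks (2.39%, exact 95% interval 1.45 to 3.71), below the share over all peaks of 4.92%. Of the 794 peaks, 8 were called positive and 11 negative. Of all 13083 peaks, 471 (3.6%) were called positive and 173 (1.32%) negative. At a false discovery rate (FDR) under 0.05 the set had 0 peaks in the authors' deposited table, where 0.0229% of all peaks passed. The median absolute log2 difference was 0.28 in the set and 0.14 among the other peaks in the authors' deposited table. A log2 difference of at least 1 in size was listed for 42 peaks of the set (5.29%), and for 0.382% of the others, but only 3 of the 42 had a p under 0.05 in the authors' deposited table. The extremes were -2.81 in Rbm44 (log10 p = -0.637) and 2.41 in Smco3 (log10 p = -0.904), by the authors' deposited table; both genes were picked with their values in view.

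By the authors' deposited table, the negative call with the smallest p was in Slc26a8, an anion transporter known from sperm (chromosome 17, 28638275 to 28638424), at -0.89 on the log2 scale (log10 p = -3.03). Its RNA also passed the threshold with a negative sign, -0.88 ± 0.15 (adjusted p = 1.6e-06) in the authors' deposited table. By the authors' deposited table, Eif3j1 stood at -0.47 (log10 p = -2.91) and Plac9b at -1.43 (log10 p = -2.61), and both peaks share bases with a peak of another gene. The Eif3j1 peak shares 688 of its 691 bases with that of Eif3j2, and the Plac9b peak shares all 150 with that of Gm9780 and 132 with that of Plac9a. A peak of Ccdc122 over 5 exon blocks (chromosome 14, 77068937 to 77111574) had -0.37, and one of A2m, a protease inhibitor (chromosome 6, 121644217 to 121645167), had -0.64 in the authors' deposited table. Mpv17l, a protein of peroxisomes and mitochondria, had -1.03, and the peaks of Evi2 had -0.40 and -0.26 by the authors' deposited table. The remaining negative calls were in Usp35 (-0.74), Procr, the protein C receptor (-0.66), and the predicted gene Gm20716 (-0.43) by the authors' deposited table.

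The largest positive difference with a call was 1.52 in Map7d3, a microtubule-binding protein (chromosome X, 56804462 to 56805491; log10 p = -1.42), by the authors' deposited table. Prss35, of the serine protease family, had 0.71, Moap1, a partner of the apoptosis protein Bax, had 0.59, and Iqcg, of motile cilia, had 0.57 in the authors' deposited table. Gal3st4, a sulfotransferase, had the smallest p among the positive calls at a difference of 0.17 (log10 p = -2.05) by the authors' deposited table, and BC065397 had 0.67. The Gal3st4 peak shares 238 of its 497 bases with a peak of 6330418K02Rik on the opposite strand. The remaining positive calls were in the predicted genes Gm12359 and A930006K02Rik. Of the 19 called peaks, 7 shared bases with a peak of another gene, those of Eif3j1, Plac9b, Evi2, Gal3st4, Gm20716 and Gm12359. In RefSeq, 11 of the 19 lay in a gene that overlaps one of at least 300 counts, as 165 of all 794 peaks (20.8%) did. Without the peaks of such genes 8 of 629 were called (1.27%).

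**Figure D5:**
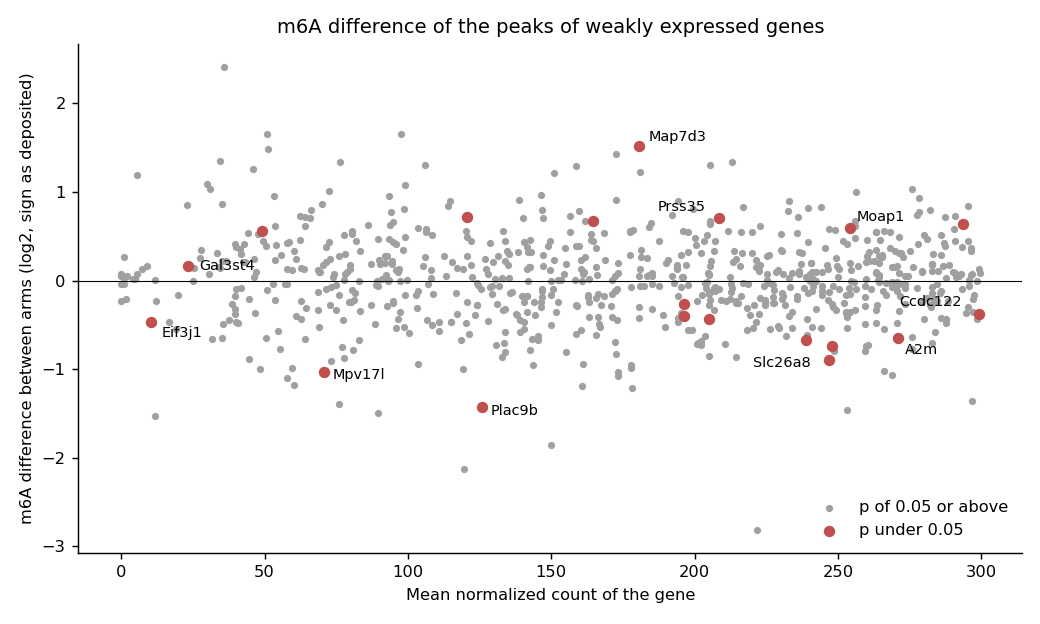
Each point is 1 of the 794 peaks, by the mean normalized count of its gene (horizontal axis) and its log2 m6A difference between the arms, sign as deposited (vertical axis); red marks a deposited p under 0.05. The 19 red points lie between -1.43 and 1.52, within the spread of the grey ones, which reach -2.81 and 2.41.

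RNA differences between the arms were more often negative than positive. An adjusted p was deposited for 642 of the 663 genes, and 69 (10.7%, exact 95% interval 8.46 to 13.4) were under 0.05 in the authors' deposited table, against 12.2% of all tested genes. Of the 642 genes, 16 were called positive and 53 negative. Of all 15396 tested genes, 934 (6.07%) were called positive and 941 (6.11%) negative. The rule used the mean count of the same table, which sets how small a difference can pass, so tested genes under 300 counts without a peak are the nearer comparison. Of those 286 of 4088 (7.0%) were called, 76 positive and 210 negative, at a median SE of 0.39, against 0.28 for the genes of the set. The median log2 fold change was -0.19 in the set, -0.17 in those genes and -0.02 over all tested genes in the authors' deposited table.

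Apart from a gene known only by a cDNA name, the most negative called gene was A2m, with -3.22 ± 0.51 (adjusted p = 1.1e-07) in the authors' deposited table. It was followed by Lrrn1 with -1.87 ± 0.66, Kcnj12, an inward-rectifying potassium channel, with -1.87 ± 0.45, and Trim55, a ubiquitin ligase of the sarcomere, with -1.79 ± 0.47 in the authors' deposited table. Adprhl1, a protein of striated muscle, had -1.72 ± 0.54, and Pappa2, a protease that frees insulin-like growth factor from its binding proteins, had -1.57 ± 0.39 in the authors' deposited table. Snhg11, a noncoding RNA, had -1.54 ± 0.26 and Sh3rf2 had -1.64 ± 0.50 in the authors' deposited table. The 17 skeletal muscle genes had mean counts from 2999 to 336368, none at 0, all negative with a median of -1.33 and 4 called by the authors' deposited table, and their part in these values was not tested.

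Gfra2, a receptor of the neurturin growth factor, had 1.23 ± 0.33 and Gpr171 had 1.13 ± 0.26 in the authors' deposited table. Dleu2, a noncoding RNA that hosts microRNAs, had 0.99 ± 0.33, and Cbx2, a polycomb protein, had 0.92 ± 0.16 (adjusted p = 3.0e-06) in the authors' deposited table. Proser3, Fam161b and Rmi2, a partner of the Blm helicase, had 0.85 ± 0.14, 0.85 ± 0.27 and 0.73 ± 0.19 in the authors' deposited table. Evi2 had a fitted value of 11.05 ± 2.90 in the authors' deposited table, from which no fold is read. The 13 B lineage genes checked had mean counts from 135 to 5542, none at 0, all positive with a median of 1.07 and 11 called by the authors' deposited table, and their part in the positive values was not tested.

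A called m6A difference and a called RNA difference met in 6 genes of the set, of 16 with a called peak and an RNA test (37.5%, exact 95% interval 15.2 to 64.6). Among all 601 genes with a called peak and an RNA test the share was 15.6%, and 12.2% of all tested genes were called. In the authors' deposited table, Slc26a8, Ccdc122, A2m and Mpv17l were negative in both, and Map7d3 had a positive m6A and a negative RNA difference. Evi2, the last of the 6, is listed with the reverse signs of Map7d3. Its peaks share 540 of 546 and 647 of 695 bases with peaks of Evi2b, so their values cannot be assigned to Evi2 alone. No fold is read from its RNA value of 11.05 ± 2.90. The share of 37.5% counts Evi2 all the same. Input RNA enters both differences, and the numerator may differ between the tables, so equal signs cannot be read as equal direction.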

How the data were processed

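Members and gene lists were chosen with earlier results of these data known. HISAT2, StringTie and DESeq, and the rat build rn6, appear in the submitters' processing notes without versions or roles; the peak caller is not given in the sources used here. Per the file headers, the authors deposited for each gene a mean of normalized counts (a signal), the log2 fold change and its SE, the Wald score, and the p-value before and after adjustment. Per the file headers, they deposited for each peak its p-value and log10 p and FDR against input, the fold enrichment as a ratio, and the log2 difference between arms with log10 p and FDR, held as a score. No single-library values were analysed here, so depth per library is unknown and no test was run.

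The tables were joined by symbol (Python 3.11.15, pandas 2.3.3, numpy 2.4.6); exact 95% binomial intervals (scipy 1.17.1), tested on simulated data, cover counting error over peaks or genes, which are not replicates. Peaks were called different at a deposited p under 0.05 and genes at an adjusted p under 0.05. Overlaps of genes come from RefSeq GRCm38.p6, where 655 of 663 genes matched by symbol; coordinates are the peak table's, counted from 1. Figures used matplotlib 3.10.9. Named by rule: the 8 largest enrichments, up to 8 calls per sign by smallest p (m6A) or largest fold change (RNA), genes with both calls, per list up to 4 peaks by enrichment and its m6A calls, and genes at the limit of the rule or of lowest count, without predicted genes. Genes outside this rule, such as those of shared peaks, RNA calls on the lists and exact ratios, were picked after their values were seen. The planned motif search in whole peaks could not be run, as no genome was used here. Alternatives were the count limit, the limit on peaks per gene, thresholds and the unit of counting.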

Additional observations from a re-analysis of the deposited data

How the results depend on the processing

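No paired analysis was possible because no values of single libraries were analysed here, so no replicate could be left out either, and the motif alternatives were not run for want of a genome. Of 31 recomputed values, 25 stayed within the exact 95% interval of the reported one. These include all those with a count limit of 200 or 500. Values without a limit on peaks per gene are also among the 25, but could not move, since that limit removed no peak. Nor could the RNA share at 12 or more counts, which rests on the same 642 genes. Several other settings kept most of the same peaks or genes, so their values had little room to move. The developmental list is among the 25 although its median went from 2.52 to 1.98. Its interval, over 10 peaks, was wide, 1.74 to 2.93. The median enrichment was 1.80 with 1 peak per gene, the most enriched one. The share of peaks called was 0.756% at p under 0.01 and 0% at an FDR under 0.05, and 1.27% without genes overlapping one of at least 300 counts. The share of RNA calls was 4.67% at an adjusted p under 0.01 and 24.8% at an unadjusted p under 0.05. Leaving out genes with a stronger overlapping gene, peaks shared with another gene, or genes under 12 counts, and adding 5 factors to the developmental list, was chosen after seeing the data. The plus-strand share was 76.0% without the genes that have a stronger overlapping gene and 70.1% when each gene was counted once. The median SE of the RNA fold change was 0.28 in the set and 0.17 over all tested genes.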

Other observations

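Enrichment values of the set fell on simple ratios more often than elsewhere. Exactly 1.5, 2.0 or 3.0 was listed for 62 of the 794 peaks (7.81%) and for 306 of the 12289 others (2.49%) in the authors' deposited table. An exact 2.0 was listed for 33 peaks of the set, among them those of Hes1, Wnt16, S1pr5, a sphingosine phosphate receptor, and Spata7, of the photoreceptor cilium.

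Peaks of 1 gene often carried the same p against input. In 42 of the 110 genes of the set with several peaks (38.2%) all peaks had the same log10 p, as in Dsp, a desmosome protein, with -4.89 for each of its 3 peaks in the authors' deposited table. Among other genes with 2 to 4 peaks the share was 18.4%. The groups differ in peaks per gene, as 92 of the 110 genes had 2 peaks, against 1605 of the 2695 others. All peaks are more easily the same with 2 peaks than with more. In Dsp the enrichment of those peaks was 1.36, 2.11 and 2.0 in the authors' deposited table, so 1 p stood beside unequal enrichments.

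Predicted and cDNA-named genes (Gm and Rik symbols) made up 101 of the 663 genes (15.2%) and 2.17% of the other genes with a peak. The share fell with the mean count, from 34.8% under 50 counts to 10.6% at 200 to 300. In the class of 300 to 500 counts, just outside the rule, it was 7.34%.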
